A study of Mus musculus with 25 samples.

Results

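The genes described are those that encode the proteasome, taken as every gene whose symbol begins with Psma, Psmb, Psmc, Psmd or Psme, with Psmb8 and Psmb9 left out. The rule found 43 genes over 4 tables of mouse islet expression, of which 41 were listed among 12822 genes in the HFD table, 42 among 15216 in the WT table, 43 among 17549 in the PBS table and 42 among 16958 in the db table. By role, 8 encode alpha subunits and 9 beta subunits of the core, 6 encode ATPases and 11 other subunits of the cap, and 5 encode activators. Psmd5, Psmd9 and Psmd10 carry a Psmd name but encode chaperones that help to assemble the cap. Psmc3ip, a recombination factor, matched the rule by its name and encodes no subunit.

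Messenger RNA of isolated islets was measured by RNA sequencing as FPKM, which counts sequenced fragments per length of transcript and per size of library, in 19 libraries of a study of BAF60C, the chromatin remodelling subunit encoded by Smarcd3. The HFD table holds 2 libraries of BcBKO mice, in which per the labels Pdx1-cre ablated the gene in beta cells, and 2 of flox/flox mice, all fed a high-fat diet (HFD) for 3 months. The Pdx1 promoter that drives this Cre is active in the embryonic pancreatic epithelium as well as in beta cells. The PBS table holds 2 libraries each of KO_REG3B-Fc, KO_PBS and CTR_PBS, and both KO_PBS and CTR_PBS are named for PBS, phosphate-buffered saline. REG3B is a secreted lectin. The labels do not say which gene KO refers to, nor how REG3B-Fc or PBS was given. The db table holds 2 libraries of db_REG3B and 2 of db_GFP, where GFP is the green fluorescent protein, and the labels do not say how either was delivered or spell out db. The WT table holds 5 wild-type libraries that the labels set in no comparison. Age, sex and strain are not in the labels, and each sample pooled the islets of at least 3 mice, so p-values measure the spread between pools.

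The proteasome degrades proteins tagged with ubiquitin. Its core is a barrel of alpha rings around beta rings, in which the subunits encoded by Psmb5, Psmb6 and Psmb7 cut the protein chain. The cap, a base with a ring of ATPases and a lid, recognises ubiquitin, unfolds the substrate and feeds it into the core. Interferon-gamma and immune cells are known for a variant, the immunoproteasome, in which the products of Psmb8, Psmb9 and Psmb10 take the places of Psmb5, Psmb6 and Psmb7, and in which the activator made of Psme1 and Psme2 can replace the cap. In beta cells the proteasome also clears misfolded proteins that are returned from the endoplasmic reticulum during insulin synthesis.

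Libraries differed in what else they held. The 6 islet hormone genes fixed as markers made up 29.4 to 73.4% of summed FPKM in the 19 libraries and none of them was at 0, while acinar enzyme markers ranged between 0.0412% and 40.7%. The 10 acinar markers together made up 30.9 and 31.8% in KO_PBS, against 15.1 and 15.0% in CTR_PBS, and WT replicate 4 stood apart from the other WT libraries at 4.84% against 25.5 to 40.7%. Tests were therefore run on values rescaled so that the typical gene stood at the same level in every library of a table (scaled FPKM). Smarcd3 was listed at 3.11 and 2.40 FPKM in BcBKO islets and at 2.57 and 2.55 FPKM in flox/flox islets, so the ablation was not visible in the gene's total level. KO_PBS islets had 0.75 and 1.09 FPKM of Smarcd3, against 1.03 and 1.15 FPKM in CTR_PBS islets. The depth behind these values is unknown, since no read counts were used here.

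Promoters were set beside the expression values for the genes that moved most. Of the 43 genes, 36 had a promoter in RefSeq (GRCm38.p6), and Psmb7 was among those without an entry. The sequences of Psmb10, Psme1 and Psme4 are shown because the results below turn on these genes. Each runs 5′ to 3′ on the gene's strand, with 250 bases before the start of the gene and 50 bases after it. They lie at chr8:105938343-105938642 on the minus strand for Psmb10, at chr14:55578244-55578543 on the plus strand for Psme1 and at chr11:30771525-30771824 on the plus strand for Psme4. Capitals mark matches to any of 4 motifs searched on both strands.
Psmb10: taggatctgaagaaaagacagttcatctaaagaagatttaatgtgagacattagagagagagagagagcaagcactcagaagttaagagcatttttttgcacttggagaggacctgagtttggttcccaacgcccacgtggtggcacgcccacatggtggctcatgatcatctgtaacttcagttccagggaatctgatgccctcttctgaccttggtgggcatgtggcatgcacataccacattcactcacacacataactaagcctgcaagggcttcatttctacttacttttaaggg
Psme1: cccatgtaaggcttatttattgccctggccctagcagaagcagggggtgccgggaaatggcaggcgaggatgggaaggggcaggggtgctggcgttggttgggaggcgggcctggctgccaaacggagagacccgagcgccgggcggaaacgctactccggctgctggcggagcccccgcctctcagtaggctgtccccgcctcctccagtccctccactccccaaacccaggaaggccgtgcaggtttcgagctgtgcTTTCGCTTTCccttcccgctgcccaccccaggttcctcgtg
Psme4: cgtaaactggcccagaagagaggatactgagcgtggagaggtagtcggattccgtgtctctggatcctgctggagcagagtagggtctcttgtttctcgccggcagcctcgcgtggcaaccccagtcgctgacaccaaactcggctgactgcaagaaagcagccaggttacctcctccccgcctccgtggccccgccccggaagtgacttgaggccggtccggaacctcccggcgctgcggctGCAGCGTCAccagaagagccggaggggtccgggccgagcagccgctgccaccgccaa
The motifs were the CCAAT box, the core TGACNNNGC of the antioxidant response element to which the proteasome regulator Nfe2l1 is known to bind, the interferon gamma activated site TTCNNNGAA and the core GAAANNGAAA of the interferon-stimulated response element. The last pair was added after the expression values were seen. CCAAT occurred in 14 of the 39 promoters of these genes (35.9%) and in 37.4% of all 32851 promoters of the same length, and TGACNNNGC occurred in 15.4% against 12.4%. TTCNNNGAA was in 1 of the 39 promoters (2.56% against 8.30% of all), and GAAANNGAAA was in 4 (10.3% against 3.44%), those of Psme1, Psmb3, Psmd4 and Psmd9. The capitals in Psme1 are a GAAANNGAAA match on the opposite strand that starts at base 9 after the gene's start. In Psme4 they are a TGACNNNGC match on the opposite strand at 7 bases before the start, and Psmb10 held none of the 4 motifs in this window. Among the alpha genes, 5 of 7 with a promoter held CCAAT: Psma1, Psma2, Psma3, Psma6 and Psma7. It was held by 2 of 6 beta genes, 2 of 5 cap ATPase genes and 2 of 9 other cap genes. Of the activators 1 of 5 held it, of the chaperones 1 of 3, and Psmc3ip held it too. The difference between roles was not tested. A match is a description of letters only, and binding was not measured.

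Core transcripts were more abundant than cap transcripts in all 19 libraries. FPKM is per length, so levels of genes in a library can be compared, although the 4 tables were normalized separately. The 15 core genes that passed the filter of 1 FPKM in at least 2 libraries ranged between 12.09 and 189.73 deposited FPKM with a median of 52.86, and the 17 cap genes between 12.01 and 114.77 with a median of 34.67. Summed over the genes, core exceeded cap by 1.16 to 1.504 times, with a median of 1.41. Together core and cap took 0.0753 to 0.310% of summed FPKM.

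Beta subunits without Psmb10 had the highest median, 64.2 FPKM, followed by alpha subunits at 45.9, cap ATPases at 38.5 and the other cap subunits at 32.4. Psmb4, a beta subunit without catalytic activity, had a median rank of 1 among the 32 core and cap genes, with a lowest place of 4 in any library. The catalytic subunit gene Psmb5 ranked 2 by its median, yet its place varied between 1 and 23 over libraries. Psmb1 ranked 3, and Psmb7 and Psmb3 tied at 5. At the other end stood the lid genes Psmd11, with a median rank of 30, and Psmd14, the deubiquitinase of the lid, at 31. Psmb10 was last at 32 and reached no place above 26 in any library. These ranks pool the tables, and the order differed between them. By median FPKM among all members listed, Psmb4 was 1 and Psmb5 was 2 in the WT, PBS and db tables. Of the 41 members on HFD, Psmb1, Psmb6 and Psmb2 led, Psmb4 was 4 and Psmb5 was 16. Psma2 was 31 on HFD, against 8 in WT, 4 in PBS and 7 in db. Within the WT table alone the place of Psmb5 varied between 1 and 17. Neighbours in the pooled order can change places between tables. On HFD Psmb3 was at 51.25 to 55.52 FPKM, above Psmb7 at 38.83 to 43.13 FPKM. In the PBS table Psmb7 had the higher median, 68.5 FPKM against 60.3 FPKM for Psmb3. These 2 genes therefore have no common order over the tables.

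Activators and chaperones covered a wider range. Psme2 was at 28.5 to 139 FPKM over the 19 libraries with a median of 45.6, and its partner Psme1 at 20.4 to 83.4 with a median of 28.7. Psme3, whose product caps the core in the nucleus, had a median of 26.7 FPKM, and Psme4, a large nuclear activator, one of 12.1. Chaperone transcripts had medians of 14.2 (Psmd5), 7.45 (Psmd10) and 5.45 FPKM (Psmd9). The testis core gene Psma8 reached at most 0.19 FPKM in 15 libraries and the thymus core gene Psmb11 was listed at 0 in all 6 libraries that list it. Psme2b, a near copy of Psme2 on chromosome 11, reached 1 FPKM in 2 libraries, and since reads could be shared between copies its values and those of Psme2 are uncertain.

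**Figure D1:**
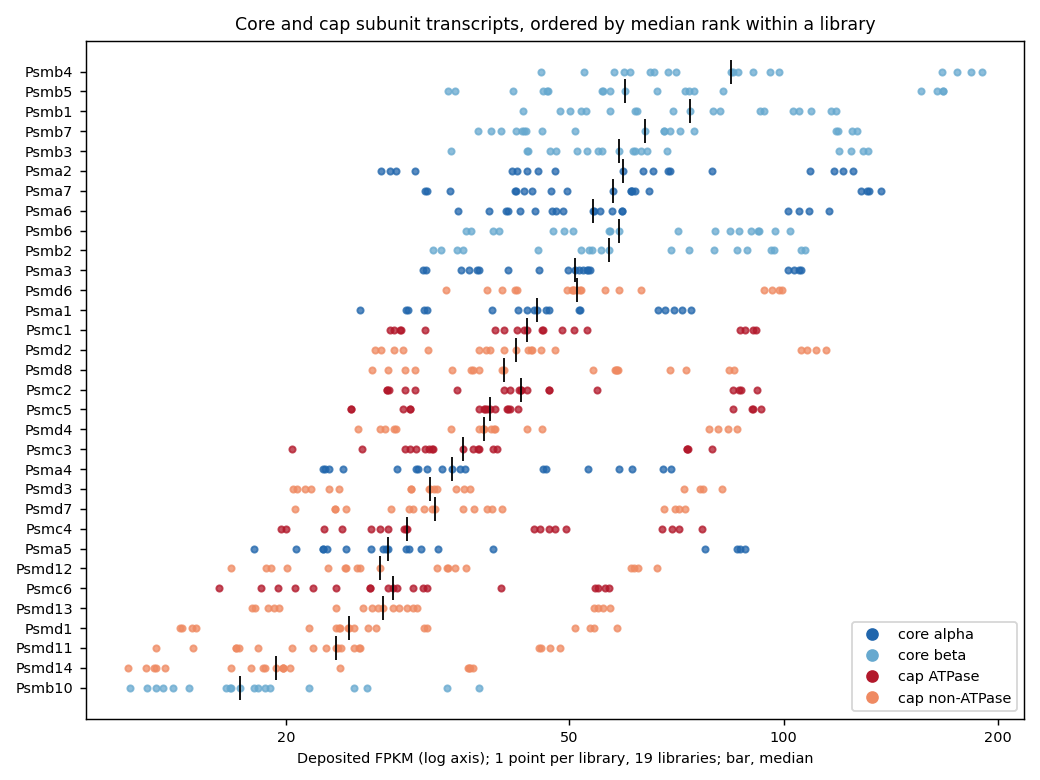
Deposited FPKM of the 15 core and 17 cap genes (log axis), 1 point for each of 19 libraries and a bar at the median, ordered by median rank within a library. Beta subunits fill most of the upper places, and Psmb10 lies at the bottom with 12.09 to 37.35 FPKM.

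In KO_PBS against CTR_PBS, Psmb10 had the largest change of the 39 genes tested. It was at 22.4 and 22.1 scaled FPKM in KO_PBS islets, against 12.1 and 13.4 scaled FPKM in CTR_PBS islets. No value of one group lay within the other. The log2 change was 0.76 with a standard error (SE) of 0.06 (limma, Benjamini-Hochberg adjusted p = 1.4e-05, n = 2 per group). It is on a log2(scaled FPKM + 1) scale, as are all changes given. Of the 39 genes, 9 were higher and 3 lower at an adjusted p under 0.05, beside 24.6% of all 11789 genes tested called higher and 20.0% called lower. The count is close to that background in the higher direction and below it in the lower one. Among genes of at least 10 FPKM, 1126 of 4014 were called higher and 951 lower, and both shares of the members are under these. Both KO_PBS libraries lay above both CTR_PBS libraries for 20 genes and below them for 6, beside 36.7% and 36.1% of all genes. The genes' median absolute change was 0.0870, against 0.145 over genes of at least 10 FPKM.

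Among the other catalytic genes, Psmb5 rose to 72.5 and 75.4 scaled FPKM in KO_PBS islets, against 59.8 and 66.4 in CTR_PBS islets (log2 change 0.23, limma adjusted p = 0.0085). Psmb6 did not pass the test (0.11, adjusted p = 0.078 in limma). Psmb7, the gene whose product Psmb10 replaces, was at 66.1 and 57.4 scaled FPKM in KO_PBS islets and at 62.4 and 62.1 in CTR_PBS islets, with a log2 change of -0.01 and a 95% interval of -0.15 to 0.13. The groups overlapped for Psmb7. Within the libraries the ratio of Psmb10 to Psmb7, which no scaling can move, was 0.339 and 0.385 in KO_PBS and 0.194 and 0.215 in CTR_PBS, 1.77 times higher in KO_PBS. The groups did not overlap, and the exact permutation test gave p = 0.333, the smallest p that 2 libraries against 2 allow.

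Of the 15 core genes 5 rose and 1 fell, with a median log2 change of 0.06, and of the 17 cap genes 3 rose and 1 fell, with a median of 0.05. Psmb1, a beta subunit without catalytic activity, rose to 67.4 and 69.8 scaled FPKM in KO_PBS, against 55.7 and 56.9 in CTR_PBS (0.28, limma adjusted p = 0.0015). Psma4 and Psma5, of the alpha ring, rose by 0.15 and 0.18, and Psmb2 fell by 0.19 on the log2 scale. In the cap, the ATPase gene Psmc3 rose to 38.2 and 33.8 scaled FPKM in KO_PBS, against 28.6 and 28.7 in CTR_PBS (0.32, limma adjusted p = 0.0022), and the lid genes Psmd6 and Psmd12 rose by 0.17 and 0.16. Psmd1, a scaffold of the base, fell to 18.6 and 18.8 scaled FPKM in KO_PBS, against 22.0 and 21.8 in CTR_PBS (log2 change -0.22, limma adjusted p = 0.0036). For none of these genes did the groups overlap. The followed cap genes Psmd14 (0.03), Psmd11 (0.01), Psmc4 (0.09) and Psmd2 (-0.09) did not pass the test.

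Of the activator pair, Psme2 fell to 37.0 and 42.4 scaled FPKM in KO_PBS, against 44.96 and 45.03 in CTR_PBS (log2 change -0.18, limma adjusted p = 0.039). Psme1 had 26.4 and 30.4 scaled FPKM in KO_PBS and 24.6 and 25.8 in CTR_PBS (0.16, adjusted p = 0.080 in limma). The ratio of Psme1 to Psme2 was 0.714 and 0.717 in KO_PBS and 0.548 and 0.574 in CTR_PBS, without overlap. Psme3 (0.04) and Psme4 (-0.03) did not pass. Of the chaperones, Psmd10, which binds an ATPase of the base, rose by 0.24 on the log2 scale. Without CTR_PBS replicate 1 or without CTR_PBS replicate 2, 5 genes in place of 9 were called higher, and without CTR_PBS replicate 2 or KO_PBS replicate 1, 1 in place of 3 was called lower.

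The direction of most of these changes depends on the scale. On deposited FPKM the median of all genes tested was -0.44, and 38 of the 39 genes were called lower there, beside 81.5% of all genes, while Psmb10 alone was called higher (log2 change 0.26, limma adjusted p = 0.0022), beside 8.66%. Psmb10, Psmb2, Psmd1 and Psme2 kept call and direction on both scales. The deposited scale moves genes downwards here, so it is no check on the lower calls of Psmb2, Psmd1 and Psme2. Psmb10 kept its call against that shift, while rises smaller than the shift turn negative by construction. Psme2 lost its call without either CTR_PBS library, without KO_PBS replicate 1 and in the fit of only these 2 groups, and Psmb2 lost it without CTR_PBS replicate 2 or KO_PBS replicate 1. The authors' deposited table calls Psmb10 (log2 fold change 0.76), Psmb1 and Psmc3 higher and Psmd1 lower, beside 15.4% and 16.0% of all genes.

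Markers of immune, acinar, stromal and endothelial cells rose in KO_PBS against CTR_PBS, as Psmb10 did. Of the 10 immune markers (Ptprc, Cd74, Cd79a, Cd79b, Lyz2, Cd68, Csf1r, Cd3e, Ms4a1 and Laptm5), 9 were tested and 9 rose in KO_PBS against CTR_PBS, and as a share of summed FPKM their list stood at 0.0293 and 0.0297% in KO_PBS libraries, against 0.00959 and 0.00882% in CTR_PBS libraries. The T cell marker Cd3e was at 0 in CTR_PBS replicate 1 and the B cell marker Ms4a1 in both CTR_PBS libraries, and none was at 0 in KO_PBS. All 10 acinar markers and all 5 stromal and endothelial markers rose as well. Of the 6 islet hormone markers 3 rose and 1 fell. As a share of summed FPKM the hormone list was at 41.4 and 40.8% in KO_PBS, against 60.9 and 61.8% in CTR_PBS. The part of these cells in the changes of the proteasome genes was not tested, and in bulk islets more cells of a type and more RNA per cell cannot be told apart. Psmb8 and Psmb9, the other inducible core genes, rose by 0.99 and 0.84 on the log2 scale.

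**Figure D2:**
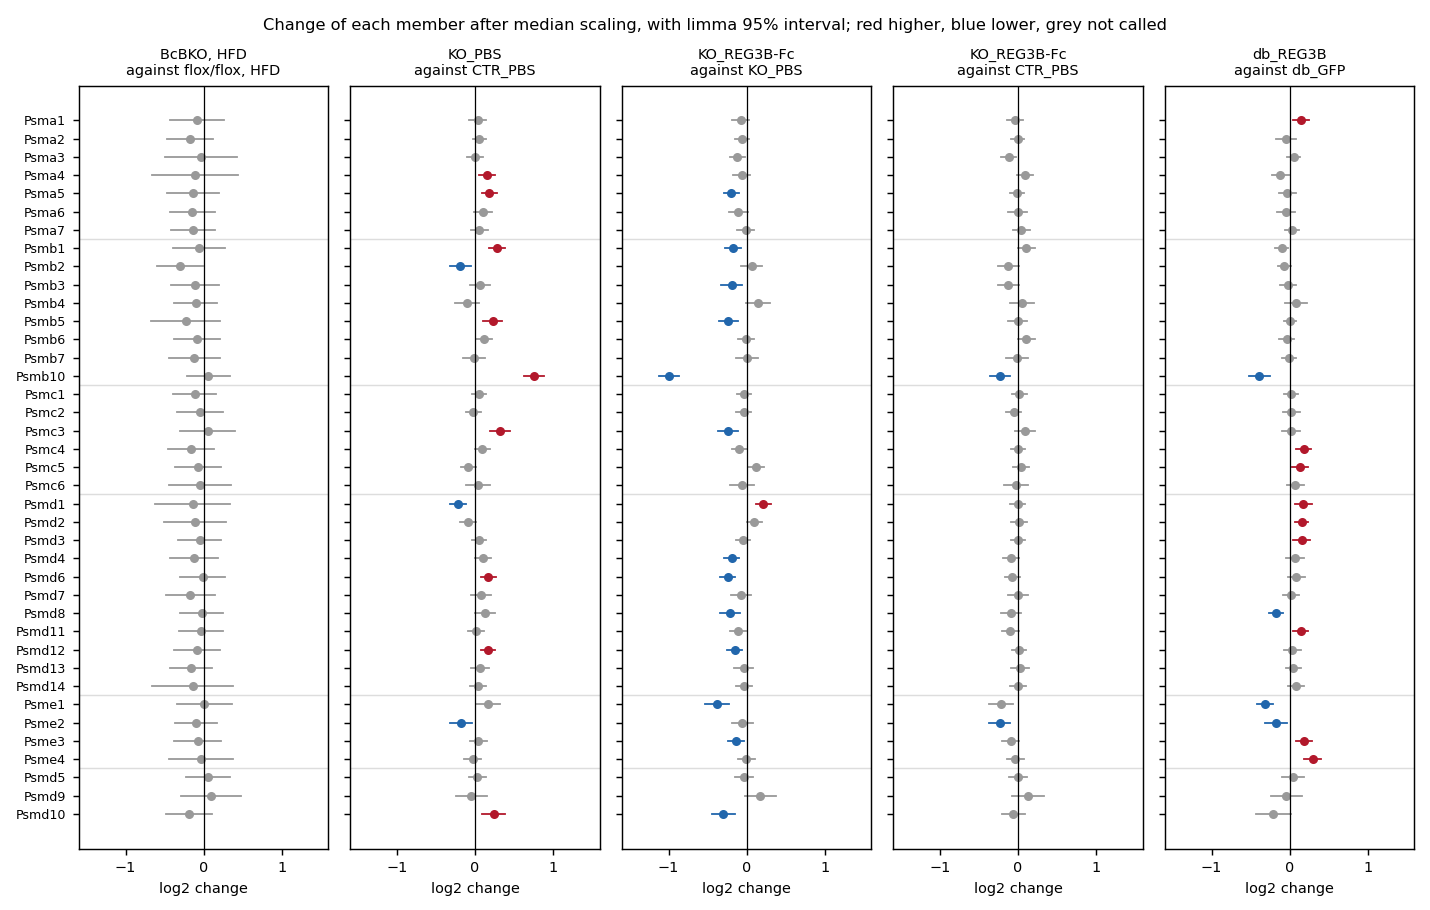
Log2 change with its 95% interval for each proteasome gene tested, on the log2(scaled FPKM + 1) axis, in 1 panel per comparison, with 2 libraries per group. Psmc3ip, tested on HFD and in the db comparison, is not drawn. Psmb10 lies farthest from 0 at 0.76 for KO_PBS against CTR_PBS and at -0.997 for KO_REG3B-Fc against KO_PBS.

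In KO_REG3B-Fc against KO_PBS, which asks what REG3B-Fc did in the knockout, Psmb10 fell to 11.0 and 10.3 scaled FPKM, against 22.4 and 22.1 scaled FPKM in KO_PBS. The log2 change was -0.997 (SE 0.06, limma adjusted p = 3.1e-06, n = 2 per group), and the groups did not overlap. Of the 39 genes 1 was higher and 13 were lower, beside 20.2% of all genes tested called higher and 24.7% called lower. Among genes of at least 10 FPKM, 832 of 4119 were called higher and 1231 lower, so the members' share called lower is near that of genes at such levels. The groups did not overlap for 4 genes with higher and 24 with lower values, beside 36.3% of all genes in each direction. This comparison shares the 2 KO_PBS libraries with the one above, so a chance deviation of these libraries would appear in both with opposite sign.

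The Psmb10 to Psmb7 ratio was 0.176 and 0.169 in KO_REG3B-Fc and 0.339 and 0.385 in KO_PBS, 0.476 times as high in KO_REG3B-Fc (exact permutation p = 0.333, the smallest possible). Psmb7 had 62.4 and 61.1 scaled FPKM in KO_REG3B-Fc and 66.1 and 57.4 in KO_PBS, with a log2 change of 0.00 and an interval of -0.14 to 0.14. Its groups overlapped. Psmb5 fell to 62.5 and 63.0 scaled FPKM in KO_REG3B-Fc, against 72.5 and 75.4 in KO_PBS (-0.23, limma adjusted p = 0.0074), and Psmb6 did not pass (-0.01).

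Core genes fell in 5 of 15 cases and none rose. Beside Psmb10 and Psmb5 these were Psma5 (-0.20), Psmb3 (-0.19) and Psmb1 (-0.17). Cap genes fell in 5 of 17 cases: Psmd6 (-0.24) and Psmd12 (-0.15) of the lid, the lid gene Psmd8 (-0.21), the ubiquitin receptor gene Psmd4 (-0.19) and the ATPase gene Psmc3 (-0.23). Psmd1 rose to 22.3 and 21.3 scaled FPKM in KO_REG3B-Fc, against 18.6 and 18.8 in KO_PBS (0.21, limma adjusted p = 0.0040), and its groups did not overlap. It was the only member called higher. The median log2 change was -0.07 for core and -0.06 for cap, with 0.00 over all genes tested. Psmd14 (-0.03), Psmd11 (-0.11), Psmc4 (-0.09) and Psmd2 (0.10) did not pass the test.

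Of the 4 activators tested, 2 fell. Psme1 had 20.9 and 22.2 scaled FPKM in KO_REG3B-Fc, against 26.4 and 30.4 in KO_PBS (-0.38, limma adjusted p = 0.0021). Psme3 fell by 0.14 on the log2 scale, and Psme2 (-0.06) and Psme4 (-0.01) did not pass. The Psme1 to Psme2 ratio was 0.548 and 0.584 in KO_REG3B-Fc, against 0.714 and 0.717 in KO_PBS, without overlap. The chaperone gene Psmd10 fell by 0.30 to 6.26 and 6.37 scaled FPKM in KO_REG3B-Fc, against 7.52 and 8.503 in KO_PBS.

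On deposited FPKM the median of all genes was 0.53 and 38 of the 39 genes were called higher, beside 86.2% of all genes. There too Psmb10 was called lower (log2 change -0.40, limma adjusted p = 0.00011), beside 6.97%, and Psmb10 and Psmd1 kept call and direction on both scales. Psme1 did not: it was at 0.23 on the deposited scale. That scale moves genes upwards here, so it is no check on the rise of Psmd1. Psmb10 fell against the shift, while falls smaller than the shift, such as that of Psme1, turn positive by construction. In the authors' deposited table Psmb10 (log2 fold change -1.04), Psme1 and Psmd6 are called lower and Psmd1 higher, beside 15.5% and 14.3% of all genes. Without KO_PBS replicate 2 or without KO_REG3B-Fc replicate 1, 3 genes in place of 1 were called higher.

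All 9 immune markers tested, all 10 acinar and all 5 stromal and endothelial markers fell in KO_REG3B-Fc against KO_PBS. Of the 6 islet hormone markers 3 rose and 0 fell. The hormone list took 62.4 and 62.2% of summed FPKM in KO_REG3B-Fc, against 41.4 and 40.8% in KO_PBS. The immune list took 0.0108 and 0.0104% of summed FPKM in KO_REG3B-Fc, against 0.0293 and 0.0297% in KO_PBS, and no marker was at 0. Their part in the changes was not tested. Psmb8 and Psmb9 fell by 0.98 and 1.10 on the log2 scale.

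In KO_REG3B-Fc against CTR_PBS few genes of any kind were called. Of the 39 proteasome genes 0 were higher and 2 lower, beside 5.47% of all genes tested called higher and 5.30% called lower. The share of proteasome genes called lower is close to that background. At an unadjusted p under 0.05 there were 6, of which 2 had higher values, beside 25.8% of all genes. The 2 were Psmb10, at 11.0 and 10.3 scaled FPKM in KO_REG3B-Fc against 12.1 and 13.4 in CTR_PBS (-0.24, limma adjusted p = 0.033), and Psme2, at 38.1 and 38.0 in KO_REG3B-Fc against 44.96 and 45.03 in CTR_PBS (-0.24, limma adjusted p = 0.042). Neither gene's groups overlapped. Psme1 was at -0.22 and missed the threshold (limma adjusted p = 0.077). Groups did not overlap for 5 genes with higher and 13 with lower values, beside 28.5% and 29.2% of all genes.

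Both calls were weak. On deposited FPKM neither passed (adjusted p = 0.12 for each in limma), and 3 core genes were called higher and 0 members lower, beside 16.8% and 2.87% of all genes. With CTR_PBS replicate 1 left out Psmb10 alone was called, and with CTR_PBS replicate 2 or either KO_REG3B-Fc library left out neither was. The Psmb10 to Psmb7 ratio was 0.176 and 0.169 in KO_REG3B-Fc and 0.194 and 0.215 in CTR_PBS, without overlap (exact permutation p = 0.333). The Psme1 to Psme2 ratio overlapped between the groups, with 0.548 and 0.584 in KO_REG3B-Fc and 0.548 and 0.574 in CTR_PBS. Psmd1 had a log2 change of -0.00 with an interval of -0.10 to 0.09, and Psmb5 one of -0.01 (-0.13 to 0.11). The median log2 change was -0.01 for core and 0.00 for cap. Of the 9 immune markers tested 1 was higher and none lower, and 3 of 5 stromal and endothelial and 3 of 6 islet endocrine markers were higher, while all 10 acinar markers were lower in KO_REG3B-Fc. Their part in the values was not tested.

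In db_REG3B against db_GFP, Psmb10 again fell, and called cap and activator genes went in both directions. Psmb10 was at 26.0 and 26.3 scaled FPKM in db_REG3B islets, against 32.7 and 36.5 in db_GFP islets (log2 change -0.39, SE 0.06, limma adjusted p = 0.0011, n = 2 per group). The groups did not overlap. Of the 40 genes tested 9 were higher and 5 lower, beside 20.7% of all 12507 genes tested called higher and 25.6% called lower. The share called higher is close to that background, and the share called lower is under it. Among genes of at least 10 FPKM, 1993 of 6974 were called higher and 1311 lower, and both shares of the members are under these. Groups did not overlap for 16 genes with higher and 8 with lower values, beside 36.8% and 37.1% of all genes.

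Core genes barely moved: Psma1 rose by 0.15 and Psmb10 fell, 2 of 15, with a median log2 change of -0.03. Psmb5 had 162.0 and 166.0 scaled FPKM in db_REG3B and 162.9 and 163.6 in db_GFP (0.01), Psmb6 was at -0.04, and Psmb7 was at 124.3 and 119.8 in db_REG3B and at 121.3 and 123.9 in db_GFP (-0.01, interval -0.09 to 0.08). The groups of all 3 overlapped. The Psmb10 to Psmb7 ratio was 0.209 and 0.220 in db_REG3B and 0.270 and 0.295 in db_GFP, 0.759 times as high in db_REG3B (exact permutation p = 0.333).

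Of the 17 cap genes 6 rose and 1 fell, and 16 of the 17 changes were above 0, with a median of 0.07. Over all genes tested the median was 0.01, and over genes of at least 10 FPKM it was 0.05. Changes were above 0 for 6388 of all 12507 genes tested and for 4160 of the 6974 genes of at least 10 FPKM. Of these 6974 genes, 1993 were called higher and 1311 lower. Psmd2, the ubiquitin-binding scaffold of the base, rose to 115.7 and 116.0 scaled FPKM in db_REG3B, against 104.9 and 103.2 in db_GFP (0.15, limma adjusted p = 0.0094). The ATPase genes Psmc4 (0.18) and Psmc5 (0.14), the base gene Psmd1 (0.18) and the lid genes Psmd3 (0.15) and Psmd11 (0.14) rose too. The lid gene Psmd8 fell to 72.0 and 73.6 scaled FPKM in db_REG3B, against 81.5 and 83.3 in db_GFP (-0.18, limma adjusted p = 0.0070). Psmd14 did not pass (0.08). The core to cap ratio of summed FPKM was 1.27 and 1.26 in db_REG3B and 1.34 and 1.34 in db_GFP, lower in db_REG3B without overlap (exact permutation p = 0.333).

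All 4 activators tested changed, in opposite directions. Psme4 rose to 25.0 and 25.2 scaled FPKM in db_REG3B, against 19.9 and 20.7 in db_GFP (0.30, limma adjusted p = 0.0017), and Psme3 rose by 0.18. Psme1 fell to 62.5 and 66.9 scaled FPKM in db_REG3B, against 81.1 and 80.7 in db_GFP (-0.32, limma adjusted p = 0.00078), and Psme2 fell by 0.18 on the log2 scale. The groups of none of these overlapped. Psmc3ip fell by 0.31 at 1.28 and 1.40 scaled FPKM in db_REG3B, against 1.82 and 1.99 in db_GFP, and no chaperone gene passed the test.

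The calls of the cap genes depend on the scale and on single libraries. On deposited FPKM, where the median of all genes tested was -0.06, no cap gene was called higher and Psme4 was the only member called higher, beside 12.2% of all genes, while 9 were called lower, beside 30.8%. Psmb10, Psme1, Psme2, Psme4, Psmd8 and Psmc3ip kept their calls there. All of these but Psme4 were called lower, in the direction of that shift. Without db_GFP replicate 1, 2 genes were called higher in place of 9 and 3 lower in place of 5, and Psmb10, Psmd3, Psmd8, Psme1 and Psme4 remained. Without db_GFP replicate 2, 8 of the 14 calls remained, and Psmd2, Psmd3 and Psmd11 were among those lost. In the authors' deposited table Psmb10 and Psme1 are lower, and Psmc4, Psmd1, Psmd2, Psmd3, Psme3 and Psme4 are higher, beside 17.8% and 16.5% of all genes.

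Of the 7 immune markers tested 6 fell and 1 rose in db_REG3B, and the list took 0.0238 and 0.0244% of summed FPKM in db_REG3B, against 0.0639 and 0.0638% in db_GFP. Ms4a1 was at 0 in both db_GFP libraries. Stromal and endothelial markers fell in 5 of 5 cases and took 0.0144 and 0.0149% in db_REG3B, against 0.101 and 0.0986% in db_GFP. Of the acinar markers 8 of 10 fell, and the list took 0.0412 and 0.0415% in db_REG3B, against 0.0954 and 0.0939% in db_GFP. Of the 6 islet hormone markers 2 rose and 2 fell. The hormone list took 63.3 and 63.5% in db_REG3B, against 48.2 and 48.5% in db_GFP. The part of these cells was not tested. Psmb8 and Psmb9 fell by 0.55 and 0.48 on the log2 scale.

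**Figure D3:**
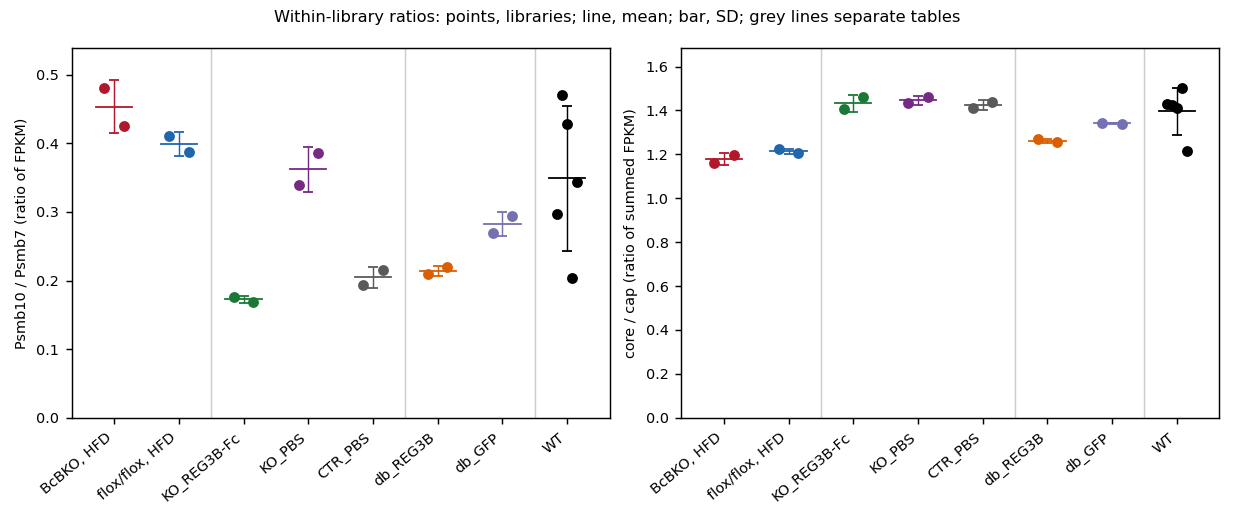
Ratio of Psmb10 to Psmb7 FPKM (left) and of summed core to summed cap FPKM (right) in each library, by group, with the mean and SD. The Psmb10 to Psmb7 ratio is at 0.169 to 0.176 in KO_REG3B-Fc, 0.339 to 0.385 in KO_PBS and 0.194 to 0.215 in CTR_PBS, while the core to cap ratio overlaps between those groups.

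In BcBKO against flox/flox on the high-fat diet no proteasome gene passed the test. Of 40 genes tested 0 were called in limma, beside 0.00865% of all 11560 genes called higher and 0% lower, and the authors' deposited table calls none of them, beside 0.112% of all genes higher and 0.0519% lower. At an unadjusted p under 0.05 there was 1, Psmb2, beside 2.55% of all genes. Psmb2 was at 66.6 and 72.0 scaled FPKM in BcBKO islets, against 86.6 and 84.6 in flox/flox islets (log2 change -0.30, SE 0.11, limma adjusted p = 1.00), and its groups did not overlap.

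Psmb10 was at 17.9 and 17.9 scaled FPKM in BcBKO, against 16.6 and 17.7 in flox/flox, a log2 change of 0.06 with an interval of -0.21 to 0.33. The interval leaves room for changes in either direction and is wider than those of the other tables. The Psmb10 to Psmb7 ratio was 0.481 and 0.426 in BcBKO and 0.411 and 0.387 in flox/flox, without overlap (exact permutation p = 0.333). Psmb5 (-0.23), Psmb6 (-0.08), Psmb7 (-0.12), Psmc4 (-0.16), Psmd2 (-0.11), Psmd11 (-0.03), Psmd14 (-0.14), Psme2 (-0.09), Psme3 (-0.07) and Psme4 (-0.04) had values below 0, and Psme1 was at 0.01; none passed. Psmc3ip (0.26) and Psmd9 (0.10) had the largest positive values.

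Of the 40 genes, 6 were above 0, and the median log2 change was -0.09, against -0.00 over all genes tested and -0.03 over genes of at least 10 FPKM. The groups did not overlap for 12 genes with lower and 1 gene with higher values in BcBKO, beside 13.8% and 13.7% of all genes. On deposited FPKM the members' median was 0.00, with 20 of 40 above 0, while that of all genes was 0.08. The core to cap ratio was 1.16 and 1.20 in BcBKO and 1.22 and 1.21 in flox/flox (exact permutation p = 0.333). No immune or acinar marker was called, and the immune list took 0.0166 and 0.0189% of summed FPKM in BcBKO and 0.0117 and 0.0212% in flox/flox.

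The 5 WT libraries gave the spread of these genes among wild-type islet pools, for which the labels name no treatment. The coefficient of variation (CV, the SD as a share of the mean of scaled FPKM) had a median of 21.4% over the 41 genes tested, against 19.5% over all genes and 18.1% over genes of at least 10 FPKM. Core genes had a median CV of 23.9% and cap genes one of 17.6%. WT replicate 5 had the lowest sums of both, 452 scaled FPKM for core and 373 for cap. Its part in these CVs was not tested. Psme4 varied least, at 4.37%, with 9.30, 8.92, 9.16, 8.42 and 9.41 scaled FPKM in replicates 1 to 5, and Psme3 had 5.04%. Psmd1 stood at 7.34% and Psmd11 at 8.41%.

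Psmb10 and Psmb5 varied most among the core and cap genes, each at 39.0%. Psmb10 was at 17.5, 26.1, 23.4, 11.1 and 10.9 scaled FPKM in WT replicates 1 to 5, and Psmb5 at 75.7, 72.3, 72.1, 37.1 and 29.0. For both genes replicates 4 and 5 lay below the other 3 libraries. The Psmb10 to Psmb7 ratio was 0.297, 0.471, 0.429, 0.204 and 0.343 in the same order, a wider range than that between KO_PBS and CTR_PBS. The core to cap ratio was 1.43, 1.42, 1.41, 1.504 and 1.21, lowest in replicate 5.

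Immune markers took 0.0218, 0.0294, 0.0166, 0.00861 and 0.0151% of summed FPKM in WT replicates 1 to 5, and Cd79b and Cd3e were at 0 in replicate 4. Acinar markers took 29.6, 38.7, 40.7, 4.84 and 25.5%. The part of these cells in the ratios was not tested.

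**Figure D4:**
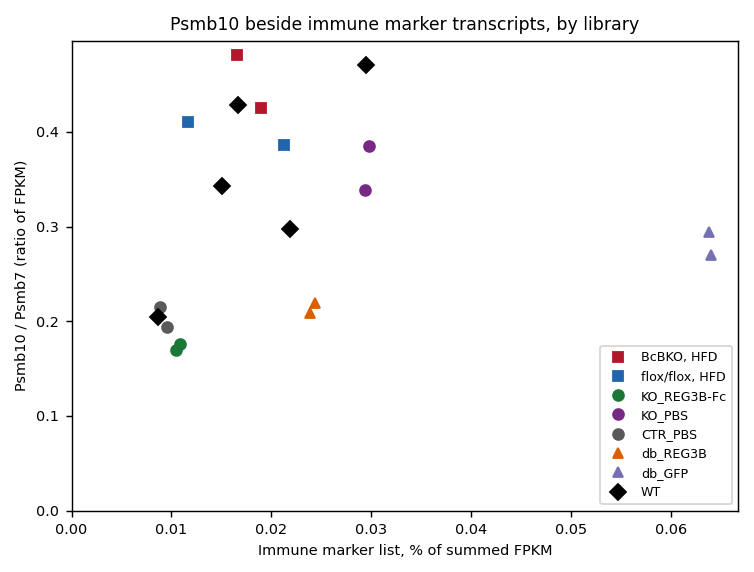
Ratio of Psmb10 to Psmb7 FPKM in each of the 19 libraries against the share of summed FPKM taken by the immune markers (percent), coloured by group. KO_PBS lies at 0.0293 and 0.0297% and CTR_PBS at 0.00882 and 0.00959%, while db_GFP has the highest shares, 0.0638 and 0.0639%, with ratios of 0.270 and 0.295.

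Other genes of the pathway, chosen by their function, were set beside the subunits. Of the assembly factors and regulators, 17 were tested in the PBS and db tables and 16 in the HFD table. In KO_PBS against CTR_PBS 1 rose and 3 fell, beside 24.6% and 20.0% of all genes, and on deposited FPKM 0 were called higher and 15 lower, beside 8.66% and 81.5%. Uchl5, a deubiquitinase of the cap, rose by 0.63, and Nfe2l1, the transcription factor known to raise proteasome genes when the proteasome is inhibited, fell by 0.27. The regulators Psmf1 and Ecpas fell by 0.16 and 0.15 on the log2 scale. In KO_REG3B-Fc against KO_PBS 2 rose, Nfe2l1 by 0.14 and Ecpas by 0.14, and Uchl5 fell by 0.68, beside 20.2% and 24.7% of all genes. On deposited FPKM 16 were called higher there and 0 lower, beside 86.2% and 6.97%. Against CTR_PBS and on HFD none was called, and on deposited FPKM 1 was higher against CTR_PBS.

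In db_REG3B against db_GFP 7 of the 17 rose and 4 fell, beside 20.7% and 25.6% of all genes, and on deposited FPKM 5 were called higher and 4 lower, beside 12.2% and 30.8%. Adrm1, a ubiquitin receptor that docks on the Psmd1 protein, rose by 0.23, Nfe2l1 by 0.15 and its activating protease Ddi2 by 0.25. Uchl5 rose by 0.41. Nfe2l2, the transcription factor of the antioxidant response, fell by 0.38, and Pomp, a chaperone of core assembly, fell by 0.13. The small lid subunit gene Sem1 fell by 0.17 and the core chaperone gene Psmg4 by 0.37, while Psmg2 rose by 0.23.

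Of 14 ubiquitin genes and shuttles, 5 rose and 3 fell in KO_PBS against CTR_PBS, 2 rose and 6 fell in KO_REG3B-Fc against KO_PBS, none was called against CTR_PBS, and 7 rose and 2 fell in db_REG3B. The shares of all genes are those given beside the assembly factors. On deposited FPKM 0 were called higher and 12 lower in KO_PBS against CTR_PBS, 13 and 0 in KO_REG3B-Fc against KO_PBS, 4 and 0 in KO_REG3B-Fc against CTR_PBS, and 1 and 3 in db_REG3B, so these directions depend on the scale. Rps27a, which encodes ubiquitin fused to a ribosomal protein, rose by 0.60 in KO_PBS against CTR_PBS, fell by 0.52 in KO_REG3B-Fc against KO_PBS and fell by 0.18 in db_REG3B. Vcp, which extracts ubiquitin-tagged proteins from the endoplasmic reticulum, rose by 0.17 in db_REG3B. Ubb, another ubiquitin gene, rose by 0.11 in db_REG3B. Reads shared with pseudogenes of ribosomal proteins could make the values of Rps27a uncertain.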

How the data were processed

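RNA sequencing of islet messenger RNA used paired ends on the BGISEQ-500, per the labels' protocols. The authors deposited FPKM for 19 libraries, TPM as well for the HFD table, and a table of log2 fold changes and p-values of their own for 4 comparisons. The build is GRCm38.p6, per the submitters' processing notes, while the aligner and counter are not given in the sources used here. The labels name 25 samples in 10 groups, and the 6 chow samples were not analysed here. Columns were assigned by the sample number in their name, which left 0 value columns unassigned.

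The genes and lists were chosen with earlier results of these data known. Genes with at least 1 deposited FPKM in at least 2 libraries of a table were tested on log2(scaled FPKM + 1) with limma 3.58.1 (R 4.3.3), using empirical Bayes moderation with a mean trend and 1 fit per table for all its groups. Scaled FPKM are deposited FPKM after division by the median, over genes, of a library's ratio to the geometric mean of its table. The two-sided p-values were adjusted by the Benjamini-Hochberg method over the whole table (11560, 11789 and 12507 genes in the HFD, PBS and db tables) and called under 0.05. Of the 43 genes, 40 passed this filter in the HFD table, 41 in the WT table, 39 in the PBS table and 40 in the db table. Core and cap lists hold the Psma and Psmb, and the Psmc and Psmd, genes that passed, without the chaperones and Psmc3ip. Every gene of the family could be named. Psmb5, Psmb6, Psmb7, Psmb10, Psmd14, Psmd11, Psmc4, Psmd2 and Psme1 to Psme4 were followed in every comparison, beside the called genes without overlap that changed most, up to 5 in each direction. Other called genes were added once their values were known. The tests were tried on simulated data first.

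Among WT lines, 275 lacked a value and 50 identifiers repeated an earlier one, and these were left out. Deposited FPKM are rounded, so steps of 1 read could not be resolved, depth is unknown, and no counting interval or floor was computed. Alternatives were the deposited scale, a pseudocount of 0.1, no filter, replicate number as a block, only the groups compared, each library left out in turn, the deposited TPM on HFD and the authors' deposited table. Values of some genes outside the family are not reported here.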

Additional observations from a re-analysis of the deposited data

Results flagged for a closer look

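Among 17 measures of the 5 WT libraries examined for a library far from the others, 3 stood out, and chance gives about 1 in 20. In each the lowest library was WT replicate 5, which lay apart from the other 4. That library also had the lowest core and cap sums, so the 3 are not separate observations. Their number cannot be set against 1 in 20. Psmb6 was at 31.2 scaled FPKM in that library and at 51.7 to 57.3 in the others. Psmb7 was at 31.9 scaled FPKM, against 54.1 to 58.9 in the others. Psme2 was at 27.4 scaled FPKM, against 47.4 to 51.3 in the others.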

How the results depend on the processing

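The scale had the widest effect. On the deposited scale 1 gene was higher and 38 lower in KO_PBS against CTR_PBS, 38 and 1 in KO_REG3B-Fc against KO_PBS, 3 and 0 in KO_REG3B-Fc against CTR_PBS, and 1 and 9 in db_REG3B against db_GFP. Scaling there moves every gene of a library alike, by its construction. Among the genes followed or named by the rule, changes that turned negative on that scale in KO_PBS against CTR_PBS were Psmb5 -0.29, Psmb6 -0.41, Psmd14 -0.46, Psmd11 -0.49, Psmc4 -0.41, Psme1 -0.35, Psme3 -0.47, Psmc3 -0.20, Psmb1 -0.24 and Psmd10 -0.23. Among the same kinds of genes, changes that turned positive in KO_REG3B-Fc against KO_PBS were Psmb5 0.39, Psmb6 0.61, Psmd14 0.56, Psmd11 0.49, Psmc4 0.51, Psme1 0.23, Psme2 0.56, Psme3 0.47, Psme4 0.57, Psmd10 0.25, Psmd6 0.37 and Psmc3 0.38. Other called genes turned too, such as Psma4 (-0.36) in KO_PBS and Psmb3 (0.43) in KO_REG3B-Fc. The authors' table gave 3 higher and 1 lower in KO_PBS against CTR_PBS. In KO_REG3B-Fc against KO_PBS it gave 3 lower, with Psmd1 higher. In db_REG3B it gave 2 lower, with Psmc4, Psmd1, Psmd2, Psmd3, Psme3 and Psme4 higher. It holds no comparison of KO_REG3B-Fc with CTR_PBS. With no filter 3 were higher in KO_REG3B-Fc against KO_PBS and 0 lower against CTR_PBS. The cause of these differences was not tested. Replicate numbers correlated at 0.67 on HFD with 2 pairs, and at -0.05 to 0.05 elsewhere. The replicate block gave 3 higher in place of 1 in KO_REG3B-Fc against KO_PBS and, in KO_REG3B-Fc against CTR_PBS, called Psme1 in place of Psmb10, and moved no other count of calls by over 1.5 times.

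Leaving out 1 library gave 5 to 10 higher and 1 to 3 lower genes in KO_PBS against CTR_PBS, 1 to 3 and 10 to 13 in KO_REG3B-Fc against KO_PBS, 0 to 0 and 0 to 1 in KO_REG3B-Fc against CTR_PBS, 2 to 6 and 3 to 6 in db_REG3B against db_GFP, and 0 in BcBKO against flox/flox. The core median minus the cap median ranged between 0.0139 and 0.0441, -0.0350 and -0.00949, -0.0138 and 0.0137, -0.106 and -0.0767, and -0.0724 and 0.0328 in the same order of comparisons, with 0.0128, -0.0130, -0.00894, -0.102 and -0.0233 over all libraries. The mean WT core to cap ratio was 1.40 over all 5 libraries, and this mean lay between 1.37 and 1.44 with 1 library left out. Psmb10 kept its call and direction in KO_PBS against CTR_PBS, KO_REG3B-Fc against KO_PBS and db_REG3B against db_GFP under every alternative run.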
